A study of Mus musculus with 3 samples.

Results

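Homologous recombination repairs broken DNA from an intact sister copy, and the Fanconi anemia pathway removes crosslinks that join the strands of DNA. The genes of both pathways, with the checkpoint kinases that respond to the same damage, were followed here in prostate tumor RNA of Phf8-KO TRAMP and TRAMP mice. They are 31 genes chosen by name, out of 46095 gene symbols in the count table: Brca1, Bard1, Brip1, Palb2 and Brca2 of the BRCA complexes, Rbbp8 and Exo1 of end resection, Rad51ap1, Rad54l, Rad54b, Xrcc2 and Xrcc3 of strand exchange, Fanca, Fancb, Fancc, Fance, Fancf, Fancg and Fancm of the Fanconi core complex, Fancd2, Fanci and Ube2t of the ID2 step, Blm, Rmi1, Rmi2, Mus81, Eme1 and Slx4 of junction processing, and the kinases Chek1, Atr and Atm. All 31 were found in the table, and 30 passed the filter on low counts. Fance did not, with counts of 0 in Phf8-KO1 and 8 in Phf8-KO2, against 2 in TRAMP.

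The study asked what loss of PHF8, a histone demethylase, does to prostate tumors of TRAMP mice, which carry a viral SV40 oncoprotein expressed in the prostatic epithelium. Tumor RNA was sequenced as 2 Phf8-KO pools (Phf8-KO1 and Phf8-KO2) and 1 TRAMP pool, each mixed from 3 mice at 37 weeks, and whether the Phf8-KO pools share mice is not given. The Phf8-KO mice were TRAMP males born to Phf8 knockout females crossed with TRAMP males, and the TRAMP pool carried wild-type Phf8 together with the same transgene. Total counts per library ranged from 26747443 to 31876182. Phf8 itself stood at 15.0 and 15.9 CPM (the count scaled to the TMM library size) in Phf8-KO, against 19.4 CPM in TRAMP, and its log2 fold change of -0.33 (SE 0.25) had an adjusted p of 0.438 in edgeR. Which part of Phf8 the allele lacks is not given in the sources used here, so this level does not check the labels, and the groups are named as labelled. The kind of lesion in each pool is likewise not given.

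When a replication fork meets a crosslink, the Fanconi core complex ubiquitinates the FANCD2 and FANCI pair, nucleases unhook the lesion, and the break that follows is handed to homologous recombination. The ends are resected, RAD54 drives strand exchange under the control of BRCA2, and joint molecules are dissolved by BLM or cut by nucleases such as MUS81 and EME1. Most of these genes are transcribed in S and G2 phases, when a sister copy is at hand, and inherited defects in several of them, BRCA2 and ATM among them, are found in aggressive prostate cancer in men.

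To show what the genes share in sequence, RefSeq promoter windows (GRCm38.p6, from 250 bases before to 50 after a transcript start) were searched on both strands. A window was matched for 25 of the 31 genes, and Rbbp8, Exo1, Rad54b, Xrcc2, Fancd2 and Rmi2 had none. The letters CCAAT (on the other strand ATTGG), bound by the NF-Y factor, occurred in 17 of the 25 (68%), against 42.1% of the 12460 tested genes with a window and 41.1% of all 27025 genes with one. Any of the E2F letters TTTCCCGC, TTTGGCGC and TTTCGCGC (GCGGGAAA, GCGCCAAA and GCGCGAAA on the other strand) occurred in 4 (16%, namely Bard1, Brca2, Fancg and Rmi1), against 3.57% of the tested genes and 2.12% of all. The letters TTTGAA (on the other strand TTCAAA), known as the CHR element of late cell cycle genes, occurred in 2 (8%, namely Bard1 and Eme1), against 15.3% and 20.2%. These are matches of letters and not measured sites, and in these windows no match of one word shared bases with a match of another.

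The 200 bases before the start are printed below for 6 genes, 5′ to 3′ on the gene's own strand, with the searched letters in capitals. Fanca, Rad54l and Brip1 stood higher in both Phf8-KO pools and hold CCAAT, Brca2 stood higher and holds an E2F match, and Ube2t and Fancf hold 3 CCAAT each but differed little between the groups. For Fancg, whose window lies inside annotated exons of other transcripts, only the 30 bases around its E2F match are shown.
Fanca, chr8:123318577-123318776, minus strand: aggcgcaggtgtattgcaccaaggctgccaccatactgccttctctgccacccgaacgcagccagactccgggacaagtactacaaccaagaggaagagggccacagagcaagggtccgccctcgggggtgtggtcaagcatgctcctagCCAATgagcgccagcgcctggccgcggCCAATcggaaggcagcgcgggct
Rad54l, chr4:116123691-116123890, minus strand: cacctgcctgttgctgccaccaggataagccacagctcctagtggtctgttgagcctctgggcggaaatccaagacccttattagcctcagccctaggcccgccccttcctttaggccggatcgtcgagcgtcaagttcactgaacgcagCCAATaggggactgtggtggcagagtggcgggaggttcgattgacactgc
Brip1, chr11:86201194-86201393, minus strand: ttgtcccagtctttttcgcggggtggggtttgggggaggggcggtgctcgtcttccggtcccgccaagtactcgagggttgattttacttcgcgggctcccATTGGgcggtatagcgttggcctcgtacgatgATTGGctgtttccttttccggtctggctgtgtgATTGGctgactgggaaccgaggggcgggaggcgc
Brca2, chr5:150522421-150522620, plus strand: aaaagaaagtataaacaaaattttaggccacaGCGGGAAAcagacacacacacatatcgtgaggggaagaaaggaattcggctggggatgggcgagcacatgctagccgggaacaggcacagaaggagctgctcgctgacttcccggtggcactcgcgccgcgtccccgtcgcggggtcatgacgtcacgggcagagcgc
Fancg, chr4:43010335-43010364, minus strand: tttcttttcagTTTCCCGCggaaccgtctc
Ube2t, chr1:134962365-134962564, plus strand: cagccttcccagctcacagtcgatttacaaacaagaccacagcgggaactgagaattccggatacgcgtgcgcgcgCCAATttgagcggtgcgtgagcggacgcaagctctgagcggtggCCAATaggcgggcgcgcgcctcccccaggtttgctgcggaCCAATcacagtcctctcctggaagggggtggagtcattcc
Fancf, chr7:51862268-51862467, minus strand: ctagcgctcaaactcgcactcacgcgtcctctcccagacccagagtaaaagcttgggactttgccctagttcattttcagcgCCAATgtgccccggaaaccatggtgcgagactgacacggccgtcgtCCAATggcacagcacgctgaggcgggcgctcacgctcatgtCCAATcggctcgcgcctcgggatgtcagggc
In Fanca the CCAAT letters begin 50 and 23 bases before the start, and in Rad54l they begin 50 bases before it, or 51 from its other annotated start. Brip1 holds ATTGG, the reverse strand form, 99, 67 and 34 bases before its start. In Ube2t the letters begin 124, 80 and 40 bases before the start, and in Fancf 118, 72 and 31 bases before it. The E2F letters begin 52 bases before the start in Fancg and, as GCGGGAAA, 168 bases before it in Brca2. The starts are those of the RefSeq windows, and the outer bounds of Fanca, Rad54l, Fancg and Brca2 given below reach beyond them.

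In the comparison of Phf8-KO with TRAMP, 25 of the 30 tested genes (83.3%) stood above TRAMP in both Phf8-KO pools, where 40.8% of all 18216 tested genes did. Another 5 (16.7%) stood below TRAMP in both, where 42.8% of all genes did, and these were Fancb, Fancm, Rmi1, Atr and Atm. The median log2 fold change of the 30 genes was 0.58, against 0.01 for all tested genes. It was positive in each pool by itself, at 0.49 in Phf8-KO1 and 0.64 in Phf8-KO2, where the medians of all genes were -0.01 and -0.04. A fitted fold change over 2 was found for 9 genes (30%), namely Bard1, Brca2, Exo1, Rad54l, Xrcc3, Fanca, Fancg, Rmi2 and Eme1, against 17.5% of all genes. None was over 2-fold lower, where 16.1% of all genes were.

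None of the 30 met both thresholds of the quasi-likelihood test in edgeR, an adjusted p below 0.05 and more than a 2-fold difference. That test called 0 of all genes higher (0%) and 7 lower (0.0384%), and the smallest adjusted p among the higher genes was 0.101. With 1 TRAMP pool the test has 1 residual degree of freedom: its p-values measure only the spread between these libraries, which rests on the Phf8-KO pools, and TRAMP is assumed to vary like them. At an unadjusted p under 0.05 in edgeR, 12 genes were higher (40%, namely Brca1, Bard1, Brip1, Brca2, Exo1, Rad54l, Xrcc3, Fanca, Fancg, Rmi2, Eme1 and Slx4), against 14.9% of all genes, and 1 was lower (3.33%, Atm), against 12.2%. DESeq2, which the study used, called 5 higher (16.7%, namely Brca2, Exo1, Rad54l, Fanca and Fancg) and 0 lower, where it called 9.42% of the 16269 genes with an adjusted p higher and 4.59% lower. limma-voom called 0 of the 30.

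**Figure D1:**
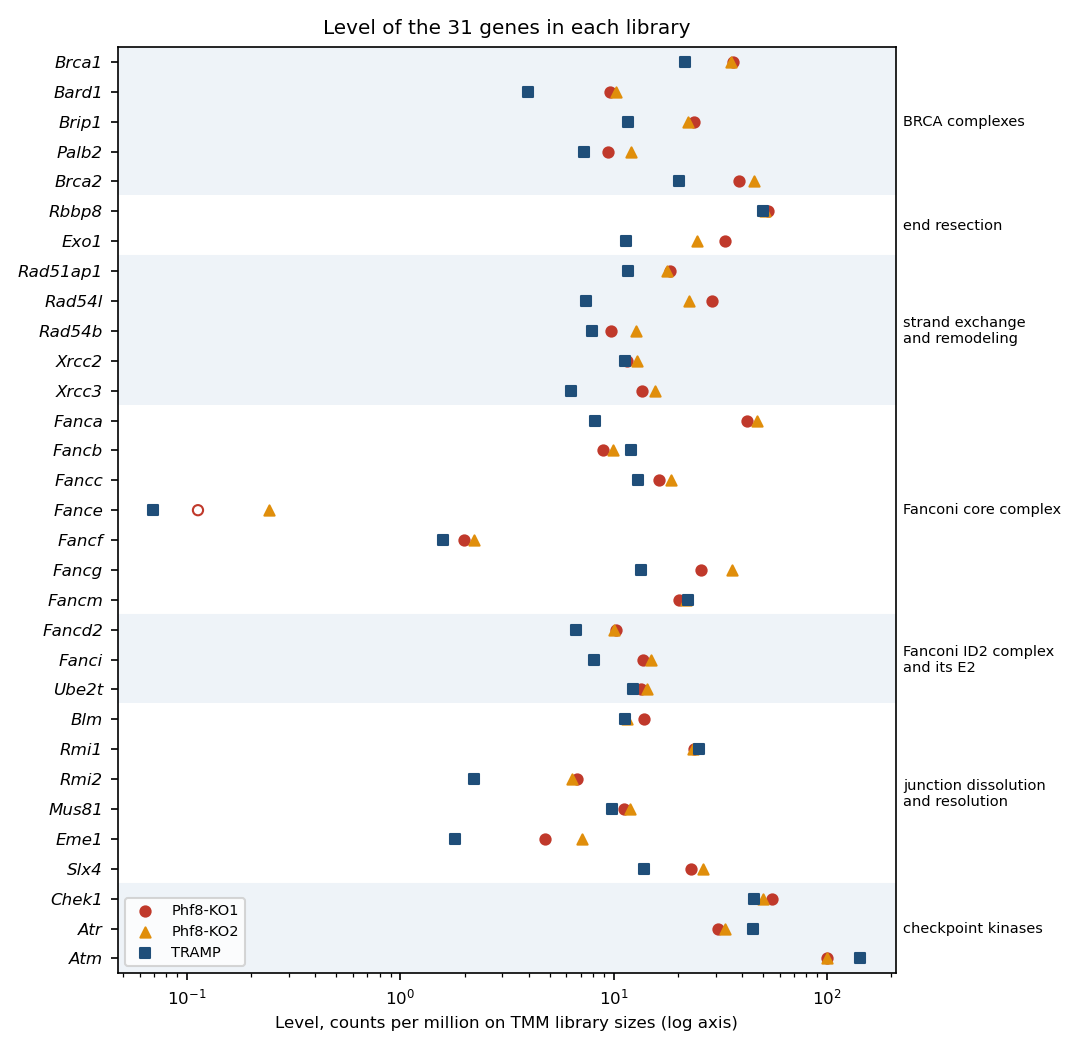
Level of each of the 31 genes in Phf8-KO1 (circles), Phf8-KO2 (triangles) and TRAMP (squares), in CPM on TMM library sizes and a log axis, grouped by role; the open circle is the floor of 3 counts for Fance in Phf8-KO1, where its count was 0. Both Phf8-KO pools lie right of TRAMP for 25 of the 30 tested genes, and left of it for Fancb, Fancm, Rmi1, Atr and Atm.

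All 5 genes of the BRCA complexes stood above TRAMP in both pools and 4 of the 5 had an unadjusted p under 0.05 in edgeR, with a median log2 fold change of 0.98. Their summed level was 117.2 and 125.6 CPM in Phf8-KO, against 64.6 CPM in TRAMP. Brca1, which with BARD1 forms a ubiquitin ligase and promotes resection, stood at 36.0 and 35.3 CPM in Phf8-KO, against 21.5 CPM in TRAMP. Its log2 fold change was 0.73 (SE 0.20, edgeR adjusted p = 0.137). Bard1, the partner that stabilises BRCA1, stood at 9.57 and 10.2 CPM, against 3.95 CPM in TRAMP, a log2 fold change of 1.33 (SE 0.40, edgeR adjusted p = 0.153). For both genes the Phf8-KO pools lay close together and well apart from TRAMP.

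Brip1, the helicase also known as FANCJ, stood at 23.6 and 22.3 CPM in Phf8-KO, against 11.7 CPM in TRAMP, with a log2 fold change of 0.98 (SE 0.24, edgeR adjusted p = 0.127). Brca2 (chr5:150522297-150570147, 27 exons), which acts at resected ends, stood at 38.5 and 45.6 CPM, against 20.3 CPM in TRAMP. Its log2 fold change was 1.05 (SE 0.23, edgeR adjusted p = 0.112), and DESeq2 called it with an adjusted p of 0.028, which ranged up to 0.117 over the 8 alternative fits. Palb2, which bridges BRCA1 and BRCA2, had the smallest fold change of the 5, at 9.42 and 12.1 CPM, against 7.27 CPM in TRAMP. Its pools differed from each other (ratio of Phf8-KO2 to Phf8-KO1 1.28, 95% counting interval 1.09 to 1.51), and its log2 fold change of 0.56 (SE 0.38) had an adjusted p of 0.401 in edgeR.

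In end resection, Rbbp8 was near level and Exo1 stood above TRAMP. Rbbp8, which encodes CtIP, the cofactor that starts resection with the MRE11 nuclease, stood at 53.0 and 51.4 CPM in Phf8-KO, against 49.9 CPM in TRAMP. The counting interval of each pool's ratio to TRAMP included 1, and its log2 fold change of 0.06 (SE 0.18) turned to -0.08 under upper quartile scaling. Exo1 (chr1:175880768-175911396, 15 exons), the exonuclease that extends resection, stood at 33.1 and 24.5 CPM, against 11.4 CPM in TRAMP. Both pools were above TRAMP, by 2.90-fold (95% counting interval 2.55 to 3.30) in Phf8-KO1 and 2.14-fold (1.88 to 2.44) in Phf8-KO2. The log2 fold change of Exo1 was 1.33 (SE 0.30, edgeR adjusted p = 0.117), and the adjusted p was 0.0151 in DESeq2 and up to 0.126 over the 8 alternative fits. These counting intervals, and all those below, compare libraries and cover counting error only.

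Among the 5 strand exchange genes the median log2 fold change was 0.63, and 2 had an unadjusted p under 0.05 in edgeR. Rad54l (chr4:116094261-116123700, 18 exons), the RAD54 translocase of strand exchange, stood at 28.97 and 22.5 CPM in Phf8-KO, against 7.41 CPM in TRAMP. That is 3.91-fold (95% counting interval 3.36 to 4.57) in Phf8-KO1 and 3.04-fold (2.61 to 3.56) in Phf8-KO2, the pools standing nearer to each other than to TRAMP. Its log2 fold change was 1.80 (SE 0.30, edgeR adjusted p = 0.101), and DESeq2 called it with an adjusted p of 0.000646, which ranged up to 0.106 over the 8 alternative fits. Rad54b, the related translocase, stood at 9.76 and 12.7 CPM, against 7.89 CPM in TRAMP, with a log2 fold change of 0.51 (SE 0.38, edgeR adjusted p = 0.434). Rad54b shares 39.1% of its annotated exon bases with Fsbp on the same strand, so its counts are uncertain.

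Xrcc3 and Xrcc2, both of strand exchange, had unequal fold changes. Xrcc3 stood at 13.5 and 15.6 CPM in Phf8-KO, against 6.30 CPM in TRAMP, a log2 fold change of 1.21 (SE 0.34, edgeR adjusted p = 0.141). Xrcc2 stood at 11.5 and 12.9 CPM, against 11.3 CPM in TRAMP, and its log2 fold change of 0.11 (SE 0.31) became -0.04 under upper quartile scaling. XRCC2 and XRCC3 belong to different protein complexes. Rad51ap1, which helps form joint molecules, stood at 18.4 and 17.8 CPM, against 11.7 CPM in TRAMP, and its log2 fold change of 0.63 (SE 0.26) had an adjusted p of 0.228 in edgeR.

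The Fanconi core complex held the gene with the largest difference of all 31 and also genes that stood below TRAMP. Fanca (chr8:123266294-123318651, 43 exons), a scaffold of the core complex and the gene most often mutated in Fanconi anemia, stood at 42.1 and 46.9 CPM in Phf8-KO, against 8.20 CPM in TRAMP. Phf8-KO1 exceeded TRAMP by 5.13-fold (95% counting interval 4.46 to 5.93) and Phf8-KO2 by 5.72-fold (4.98 to 6.58), both intervals far from 1. Compared directly, the pools differed from each other by 1.115-fold (95% counting interval 1.032 to 1.205). The log2 fold change of Fanca was 2.44 (SE 0.23, edgeR adjusted p = 0.101). DESeq2 gave it an adjusted p of 3.25e-09, and over the 8 alternative fits the adjusted p ranged up to 0.106. Per kb of its longest coding transcript, Fanca stood at 9.38 and 10.5 CPM in Phf8-KO and 1.83 CPM in TRAMP.

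Fancg (chr4:43002337-43010567, 14 exons), which binds FANCA directly, stood at 25.6 and 35.6 CPM in Phf8-KO, against 13.4 CPM in TRAMP. The pools differed from each other by 1.39-fold (95% counting interval 1.26 to 1.53). Its log2 fold change was 1.19 (SE 0.31, edgeR adjusted p = 0.133), and DESeq2 called it with an adjusted p of 0.0393. Over the 8 alternative fits that p ranged from 0.0353 to 0.14. The other core genes were nearer to TRAMP. Fancc, of the adaptor module with FANCE and FANCF, stood at 16.4 and 18.7 CPM, against 13.0 CPM in TRAMP, with a log2 fold change of 0.43 (SE 0.27, edgeR adjusted p = 0.374). Fancf, of the same module and a gene of 1 exon, was low in each library, at 1.99 and 2.20 CPM, against 1.59 CPM in TRAMP, and the counting interval of each ratio to TRAMP included 1. Fance, the third gene of the module, had 0 counts in Phf8-KO1, which allows up to 0.113 CPM, and stood at 0.24 CPM in Phf8-KO2 and 0.07 CPM in TRAMP.

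Fancb, which holds the catalytic module of the core complex together with FANCL and FAAP100, stood at 8.93 and 9.90 CPM in Phf8-KO, against 12.1 CPM in TRAMP. Both pools were below TRAMP beyond counting error, but the log2 fold change of -0.36 (SE 0.33) had an adjusted p of 0.513 in edgeR. It is the only one of the 31 on chromosome X, which also carries Phf8. Fancm, the translocase that anchors the complex on DNA, stood at 20.2 and 21.9 CPM, against 22.3 CPM in TRAMP, and its log2 fold change was -0.09 (SE 0.22). At the ID2 step, where the core complex and the conjugating enzyme UBE2T ubiquitinate FANCD2 and FANCI, all 3 genes stood above TRAMP in both pools and none had an unadjusted p under 0.05 in edgeR. Fanci stood at 13.8 and 15.0 CPM, against 8.10 CPM in TRAMP, a log2 fold change of 0.83 (SE 0.31, edgeR adjusted p = 0.203). Fancd2 stood at 10.2 and 9.99 CPM, against 6.64 CPM in TRAMP, a log2 fold change of 0.60 (SE 0.36, edgeR adjusted p = 0.351). Ube2t was nearly level, at 13.5 and 14.4 CPM, against 12.3 CPM in TRAMP.

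Of the 6 junction genes, 3 had an unadjusted p under 0.05 in edgeR and 3 differed little. Eme1, the non-catalytic partner of the MUS81 nuclease, stood at 4.77 and 7.09 CPM in Phf8-KO, against 1.80 CPM in TRAMP. Its log2 fold change was 1.72 (SE 0.58, edgeR adjusted p = 0.173), and the pools differed from each other by 1.49-fold (95% counting interval 1.19 to 1.86). Rmi2, which stabilises the BLM, TOP3A and RMI1 complex, stood at 6.76 and 6.40 CPM, against 2.22 CPM in TRAMP, a log2 fold change of 1.57 (SE 0.48, edgeR adjusted p = 0.156). Slx4, the scaffold that docks the nucleases, stood at 23.0 and 26.3 CPM, against 13.8 CPM in TRAMP, with a log2 fold change of 0.83 (SE 0.24, edgeR adjusted p = 0.149). For these 3 genes both pools stood clear of TRAMP.

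The other 3 junction genes stood close to TRAMP. Mus81, the nuclease itself, stood at 11.2 and 11.98 CPM in Phf8-KO, against 9.80 CPM in TRAMP (log2 fold change 0.24, SE 0.32). Blm, the helicase, stood at 13.9 and 11.6 CPM, against 11.3 CPM in TRAMP (log2 fold change 0.17, SE 0.32). Rmi1 stood at 23.6 and 23.5 CPM, against 25.0 CPM in TRAMP (log2 fold change -0.09, SE 0.21).

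The checkpoint kinases were the only role group whose summed level was lower in Phf8-KO, at 186.6 and 182.8 CPM, against 233.1 CPM in TRAMP. Atm, the kinase of double-strand breaks, stood at 100.4 and 99.9 CPM in Phf8-KO, against 142.9 CPM in TRAMP. Its log2 fold change was -0.51 (SE 0.18, edgeR adjusted p = 0.176), and the 2 pools were within 1 CPM of each other. Atr, the kinase of stalled forks, stood at 30.8 and 33.1 CPM, against 44.8 CPM in TRAMP, a log2 fold change of -0.49 (SE 0.19, edgeR adjusted p = 0.205). Chek1, the effector kinase that ATR activates, stood on the other side, at 55.4 and 49.8 CPM, against 45.4 CPM in TRAMP, with a log2 fold change of 0.21 (SE 0.19, edgeR adjusted p = 0.516). Without the kinases, the summed level of the remaining 28 genes was 521 and 545 CPM in Phf8-KO, against 332 CPM in TRAMP, a ratio of 1.57 in Phf8-KO1 and 1.64 in Phf8-KO2.

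**Figure D2:**
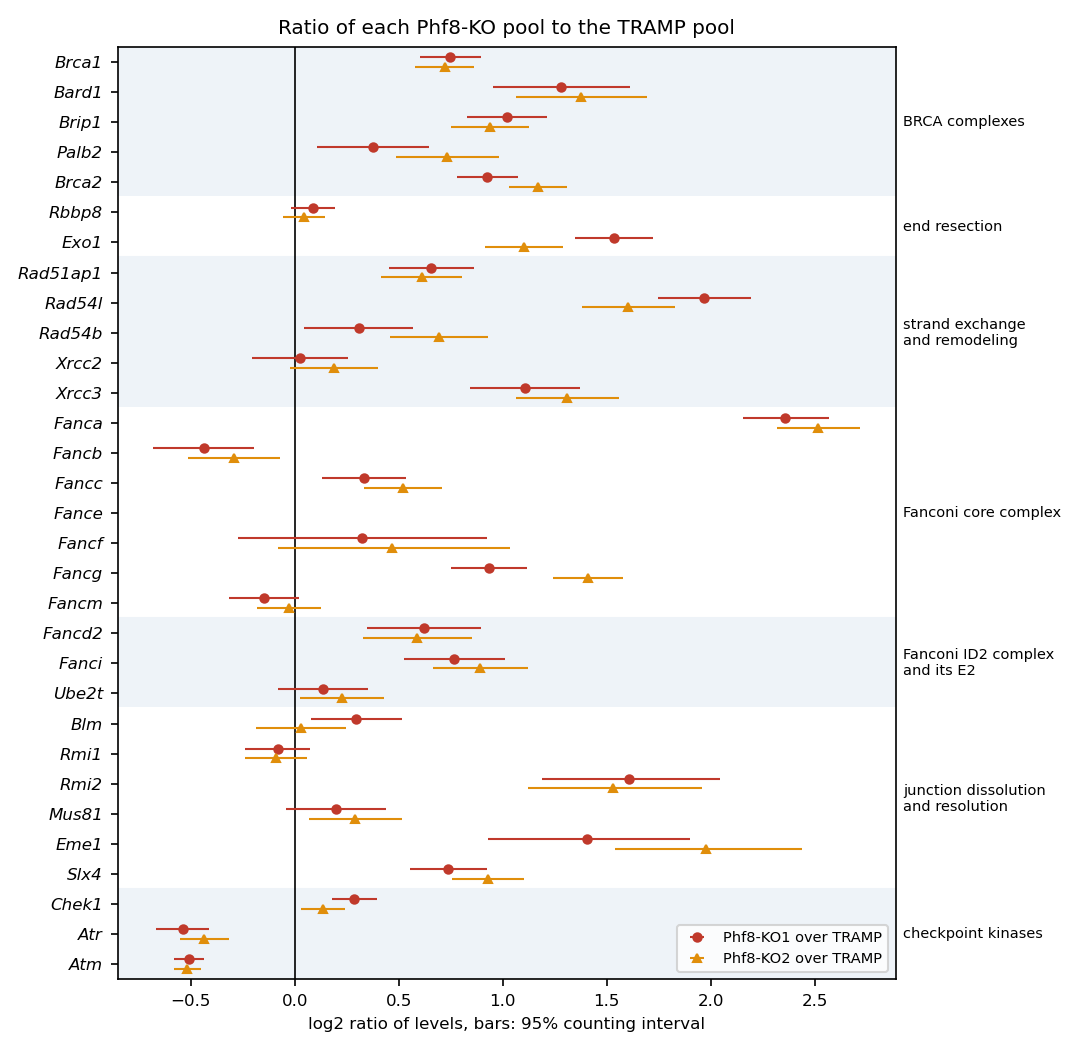
log2 ratio of Phf8-KO1 (circles) and Phf8-KO2 (triangles) to TRAMP for each gene, with bars for the 95% counting interval; Fance is not drawn. Fanca lies farthest right, at ratios of 5.13 and 5.72, and Atr and Atm lie left of 0 with both intervals clear of it.

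The level of these genes differed little between the Phf8-KO pools. None of the 30 was over 2-fold apart between Phf8-KO2 and Phf8-KO1, where 19.8% of all tested genes were. The counting interval of the ratio of Phf8-KO2 to Phf8-KO1 did not include 1 for 13 of the 30 (43.3%), against 58.8% of all genes, and the median log2 ratio was 0.10 over the 30 and -0.001 over all genes. Eme1, Fancg and Rad54b were among those higher in Phf8-KO2, and Exo1 and Rad54l among those higher in Phf8-KO1 (ratio of Phf8-KO2 to Phf8-KO1 0.74 for Exo1 and 0.777 for Rad54l). With either pool left out, the same 25 genes stood above TRAMP by construction of that count, and the median log2 fold change was 0.65 without Phf8-KO1 and 0.50 without Phf8-KO2.

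Levels can be set side by side between genes only per length, here CPM per kb of the longest coding transcript. On that scale Rbbp8 (15.0 and 14.6 CPM per kb in the Phf8-KO pools, 14.2 in TRAMP), Chek1 (14.6 and 13.1, against 11.97 in TRAMP) and Ube2t (12.1 and 12.9, against 11.01 in TRAMP) were among the 4 highest genes of each library. In TRAMP the highest of the 31 was Atm, at 14.6 CPM per kb, against 10.2 in each Phf8-KO pool. Fance, Fancf, Bard1 and Rmi2 were among the 5 lowest in every library.

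Ratios between genes were taken for 8 pairs, of binding partners, of related translocases (Rad54l and Rad54b) and of strand exchange genes (Xrcc3 and Xrcc2), chosen after the values were seen. The ratio of counts per kb was taken within each library, so that library scaling cancels. Rad54l was 2.82 and 1.68 times Rad54b in the Phf8-KO pools, against 0.891 times in TRAMP. Xrcc3 was 1.58 and 1.63 times Xrcc2, against 0.748 times in TRAMP. Ratios were also higher in Phf8-KO for Rmi2 over Rmi1 (0.322 and 0.306, against 0.0996 in TRAMP), Eme1 over Mus81 (0.359 and 0.501, against 0.155 in TRAMP) and Bard1 over Brca1 (0.309 and 0.336, against 0.214 in TRAMP).

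Fanca over Fancg was 1.014 and 0.813 in the Phf8-KO pools, against 0.377 in TRAMP. Palb2 over Brca2 went the other way, at 0.699 and 0.756, against 1.02 in TRAMP. In these 7 pairs the 95% counting intervals of both Phf8-KO pools were apart from that of TRAMP. Fancd2 over Fanci, the subunits of the ID2 complex, was 0.625 and 0.561 in the Phf8-KO pools and 0.692 in TRAMP, with overlapping intervals. The pairs are given as a description with no test between the groups.

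**Figure D3:**
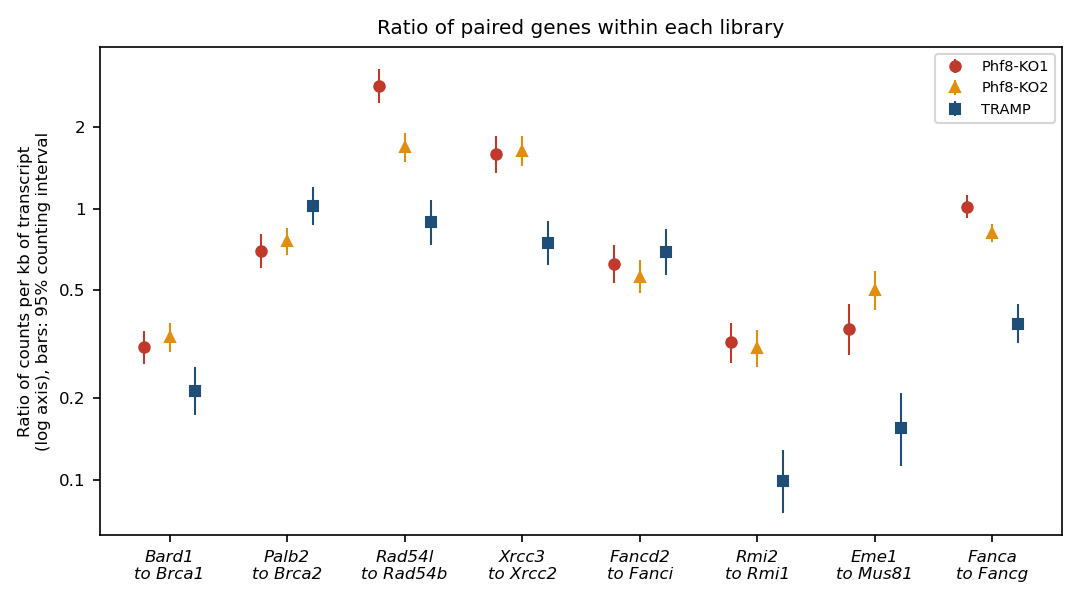
Ratio of counts per kb of transcript between the genes of each pair within Phf8-KO1 (circles), Phf8-KO2 (triangles) and TRAMP (squares), on a log axis with 95% counting intervals. The Phf8-KO pools lie apart from TRAMP in 7 of the 8 pairs, below it for Palb2 to Brca2, and overlap it for Fancd2 to Fanci.

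Other genes of the same pathways had smaller median differences. Of 34 other homologous recombination genes, 5 had an unadjusted p under 0.05 in edgeR, 4 of them higher and 1 lower in Phf8-KO, with a median log2 fold change of 0.17. The MRE11 complex genes Mre11a, Rad50 and Nbn had log2 fold changes of -0.11, -0.28 and -0.38. Of 20 other crosslink repair genes, 4 were higher and 2 lower, with a median of 0.30. Faap20, which binds FANCA, stood at 30.96 and 28.3 CPM, against 13.6 CPM in TRAMP (log2 fold change 1.12, SE 0.22, edgeR adjusted p = 0.107). Faap100, a partner of FANCB and FANCL, stood at 17.7 and 19.8 CPM, against 5.12 CPM in TRAMP (log2 fold change 1.87, SE 0.31, edgeR adjusted p = 0.101), while Fancl had a log2 fold change of -0.54 (SE 0.30).

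Of 15 other checkpoint genes that were tested, 6 were higher and 0 lower at the same unadjusted threshold. Timeless, of the fork protection complex, stood at 57.1 and 65.1 CPM in Phf8-KO, against 14.8 CPM in TRAMP, and Clspn, the mediator through which ATR activates CHEK1, at 47.2 and 47.1 CPM, against 14.7 CPM in TRAMP. Timeless and Clspn, named for their small p, thus stood higher while Atr stood lower. The list as a whole was mixed: of the 15, 11 stood above TRAMP in both pools and 4 below it in both. Over all tested genes, 40.8% stood above TRAMP in both pools and 42.8% below it in both. The 12 end joining genes had 0 higher and 3 lower (Xrcc5, Dclre1c and Xrcc4) and a median of 0.02, the 7 mismatch repair genes 0 and 0 with a median of 0.13, the 16 base excision repair genes 5 and 1 with 0.52, and the 13 nucleotide excision repair genes 1 and 2 with -0.08. Over all 116 tested genes of these other lists, 20 were higher and 9 lower, 64 stood above TRAMP in both pools, and the median log2 fold change was 0.19. Over all tested genes, 14.9% were higher and 12.2% lower at the unadjusted threshold. Of the 116, edgeR called 0 at the adjusted threshold and DESeq2 called 10, all higher. Among all genes with an adjusted p, DESeq2 called 9.42% higher and 4.59% lower. The lists are described by counts and medians, and no test between them was made.

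**Figure D4:**
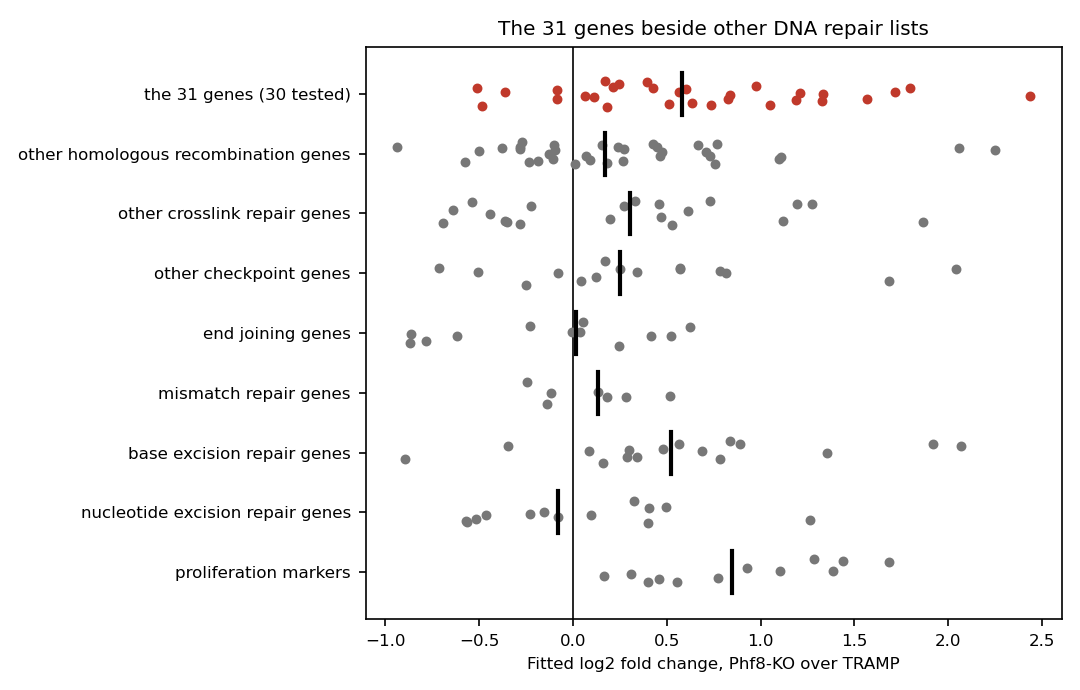
Fitted log2 fold change of Phf8-KO over TRAMP for each tested gene of the 31 (top row) and of the other repair, checkpoint and proliferation lists, with a vertical bar at each median. The median is 0.58 for the 31 genes, 0.17 for the other homologous recombination genes, 0.02 for the end joining genes and 0.85 for the proliferation markers.

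Markers of dividing cells stood higher in Phf8-KO, as did most of the 31 genes. All 12 proliferation markers stood above TRAMP in both Phf8-KO pools, where 40.8% of all tested genes did. Of the 12, 7 were higher at an unadjusted p under 0.05 in edgeR, against 14.9% of all genes. Their log2 fold changes ranged from 0.17 for Top2a to 1.685 for Aurkb. Top2a was near level in Phf8-KO2, at 1.015 times TRAMP (counting interval 0.976 to 1.055). The summed level of the 12 was 1651 and 1524 CPM in Phf8-KO, against 995 CPM in TRAMP. Mki67, Pcna, Mcm2 and Top2a had the highest levels among them in each library. Each of the 12 was above 0 in every library, and their median log2 fold change was 0.85. The summed level of the 28 genes without the kinases, divided by that of the 12 markers, was 0.316 and 0.357 in the Phf8-KO pools, against 0.334 in TRAMP, so that TRAMP lay between the pools. The same ratio for the kinases was 0.113 and 0.12, against 0.234 in TRAMP.

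Set against the summed markers, a scaling added after the data were seen, 13 of the 30 genes (43.3%) stood above TRAMP in both pools, where 18.3% of all tested genes did, and 15 (50%) stood below it in both, where 67.9% of all tested genes did. Fanca was then 3.09-fold above TRAMP in Phf8-KO1 and 3.73-fold above it in Phf8-KO2. Rad54l stood at 2.36 and 1.98 times TRAMP on this scale, Rmi2 at 1.84 and 1.89 times, and Eme1 at 1.60 and 2.57 times. Brca1, at 1.012 and 1.07 times, and Slx4, at 1.004 and 1.24 times, were close to level in Phf8-KO1. This scaling is a description, and it rests mostly on the markers with the highest levels. Whether another set of markers would give the same counts was not tested, nor was the part of cell division in these differences.

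The pools also differed in tissue content. The 8 skeletal muscle markers summed to 81.1 and 28.01 CPM in Phf8-KO, against 1713 CPM in TRAMP, and the 6 adipocyte markers to 19.5 and 30.8 CPM, against 655 CPM in TRAMP, with Lep at 0 in Phf8-KO1 and Cidec at 0 in Phf8-KO2. The 6 seminal vesicle markers ran the other way, at 1411 and 2051 CPM, against 114 CPM in TRAMP. Smooth muscle markers summed to 4876 CPM in Phf8-KO1, 357 CPM in Phf8-KO2 and 666 CPM in TRAMP, so the gap between Phf8-KO1 and Phf8-KO2 was far wider there than in any of the 30 genes. Macrophage, T cell, and B and plasma cell markers were lower in both Phf8-KO pools (267 and 108, 14.1 and 6.88, and 56.1 and 14.1 CPM, against 590, 35.8 and 330 CPM in TRAMP), with Trac at 0 in all 3 libraries. The 8 luminal prostate markers, Krt8 and Krt18 among them, were near level, at 2968 and 3018 CPM, against 3067 CPM in TRAMP, with none at 0. Neuroendocrine markers, 8 in number, summed to 43.4 and 25.6 CPM, against 90.5 CPM in TRAMP. The part of these cell types in the differences above was not tested, and in bulk tumor RNA fewer cells of a type and less RNA per cell cannot be told apart.

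Genes that overlap others were checked, because the strand setting of the counting is not given in the sources used here. By annotation, 11 of the 31 share exon bases with another gene, from 0.132% to 39.1% of their own exons. Fanca shares 8.62% with Zfp276 on the opposite strand, which stood at 23.3 and 23.8 CPM in Phf8-KO, against 18.1 CPM in TRAMP (log2 fold change 0.38, SE 0.22), a far smaller difference than that of Fanca. Rad54l shares 4.12% with Lrrc41, which stood at 70.9 and 61.1 CPM, against 80.3 CPM in TRAMP, on the other side of TRAMP from Rad54l. Eme1 shares 9.04% with Lrrc59, which at 120.0 and 123.7 CPM, against 107.1 CPM in TRAMP, also stood a little above TRAMP. It shares 3.07% with Mrpl27, which stood below TRAMP, at 34.0 and 27.98 CPM, against 45.2 CPM in TRAMP. Rmi1 shares 4.36% with Hnrnpk, which stood at 481.5 and 448.5 CPM, against 451.3 CPM in TRAMP. What these genes add to the Eme1 and Rmi1 counts was not measured. Fanci shares 13.4% with Polg, at 50.2 and 47.8 CPM, against 37.1 CPM in TRAMP.

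The promoter letters were also counted by difference in level. CCAAT was found in 6 of the 10 genes with a window and an unadjusted p under 0.05 higher in Phf8-KO, and in 11 of the other 15. E2F letters were found in 3 of those 10 (Bard1, Brca2 and Fancg) and in 1 of the other 15 (Rmi1), and the letters TTTGAA in 2 of the 10 and 0 of the 15. Ube2t and Fancf, with 3 CCAAT matches each in the stretches printed above, had log2 fold changes of 0.18 (SE 0.29) and 0.40 (SE 0.61), whereas Fanca, with 2, had 2.44. Absence of a match says only that these letters are not in the window.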

How the data were processed

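The authors sequenced tumor RNA of 2 Phf8-KO pools and 1 TRAMP pool, and aligned the filtered reads to GRCm38 with HISAT2, with gene counts from HTSeq. The deposited values are raw counts, with no normalization by the authors. Tool versions, annotation release and strand setting are not given in the sources used here. The members and gene lists were chosen with earlier results of these data known, and of the other lists only some of the genes with the smallest p are named. Mre11a, Rad50, Nbn and Fancl fall outside that rule and were named after their values were seen. Some genes of these lists are not reported here by name.

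Counts of 18216 genes passing filterByExpr by group were fitted with edgeR 4.0.16 in R 4.3.3 (TMM, quasi-likelihood test, Benjamini-Hochberg over all tested genes). The study's thresholds were kept for a call: adjusted p below 0.05, and a fold change of more than 2 or less than 0.5. SE is the size of the log2 fold change divided by the square root of F. DESeq2 1.42.0, limma-voom (limma 3.58.1), other scalings, other filters, another quasi-likelihood setting and leaving out a Phf8-KO pool were alternatives. The script was tested on simulated data. A count of 3 equals 0.0905 to 0.113 CPM. Counting intervals are exact (Clopper-Pearson, 95%, scipy 1.17.1). Coordinates and promoter sequences are RefSeq's (GRCm38.p6); transcript lengths, exons and overlaps are from GENCODE M21.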

Additional observations from a re-analysis of the deposited data

How the results depend on the processing

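The sign of the log2 fold change was the same under each scaling, filter and tool for 28 of the 30 genes; upper quartile scaling shifted the all-gene median by -0.15, and under it Rbbp8 turned to -0.084 and Xrcc2 to -0.041. Genes higher at an unadjusted p under 0.05 numbered 11 or 12 throughout. edgeR called 0 of the 30 higher, against 5 without a filter on low counts and 5 with DESeq2, the same 5 genes, and DESeq2 gave adjusted p under the threshold to Brca2, Exo1, Rad54l, Fanca and Fancg. Genes lower at that unadjusted p numbered 1, against 2 under upper quartile scaling or a mean CPM of at least 1, and 0 under library size scaling, no filter or DESeq2. Over all genes, calls higher numbered 0, against 1 under library size scaling, 1430 without a filter and 1533 with DESeq2; calls lower numbered 7, against 19, 856 and 747 in the same order, and 0 under a mean CPM of at least 1 or limma-voom. The median log2 fold change of the 30 genes was 0.58, and 0.43 under upper quartile scaling. Genes below TRAMP in both pools numbered 5, 3 under library size scaling and 6 under upper quartile scaling; genes above numbered 25, 21 under upper quartile scaling and 13 relative to the proliferation markers, which was chosen after seeing the data. The cause of these changes was not tested. No paired analysis was possible because the numbers of the Phf8-KO pools have no counterpart in the 1 TRAMP pool. Precision is limited by the number of pools, and for Fance and Fancf also by depth.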

Other observations

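The lower level of Atm and Atr was set beside the other kinases of their family, chosen after the values were seen. Smg1, of nonsense-mediated decay, stood at 155.5 and 190.0 CPM in Phf8-KO, against 256.5 CPM in TRAMP (log2 fold change -0.57, SE 0.23, edgeR adjusted p = 0.216). Prkdc, the kinase of end joining, stood at 56.2 and 51.7 CPM, against 63.3 CPM in TRAMP (log2 fold change -0.23, SE 0.18). Mtor, of growth signalling, stood on the other side, at 20.4 and 23.3 CPM, against 15.6 CPM in TRAMP (log2 fold change 0.48, SE 0.25). Trrap, the kinase-like scaffold of acetyltransferase complexes, stood at 95.8 and 110.4 CPM, against 53.9 CPM in TRAMP, with a log2 fold change of 0.94 (SE 0.21, edgeR adjusted p = 0.114). The family therefore did not stand on one side of TRAMP.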
